A study of Homo sapiens with 22 samples.

Results

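SK-N-AS and GIMEN are established human neuroblastoma cell lines that were compared here before any treatment, through all 7 untreated libraries among the 22 libraries of the series. The members are the 4 libraries labelled naive SK-N-AS and the 3 labelled naive GIMEN, chosen by their labels and by no measured value. Untreated SK-N-AS cells were kept in DMEM and untreated GIMEN cells in RPMI, both with 10% fetal bovine serum, a glutamine supplement and antibiotics, and neither received a compound. Line and basal medium therefore changed together and cannot be told apart. Each line derives from a single tumour culture, so the differences describe these lines, and nothing in the labels says whether replicates were separate cultures, so the p-values measure the spread between these libraries only. Both lines carry the same label, that of the mesenchymal (MES) neuroblastoma type. Groups treated for 30 days are used at the end: SK-N-AS (n = 4) had received 5 µM PP121, a kinase inhibitor, and then also 100 nM bufalin, a cardiac glycoside, in serum-free neuronal medium, while GIMEN (n = 3) had received 2.5 µM PP121 and 10 nM bufalin in RPMI with 1% serum.

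Neuroblastoma arises from the sympathetic branch of the neural crest. Its cells are commonly placed between an adrenergic state, held by PHOX2A, HAND2, GATA3 and related factors and equipped to make and store catecholamines, and a mesenchymal state with factors such as PRRX1, SNAI2, RUNX and AP-1 proteins, abundant extracellular matrix and features of early neural crest. The label places both lines at the mesenchymal end, and the comparison asks how alike they are there.

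The 4 SK-N-AS libraries held 19145000 to 37506800 counts and the 3 GIMEN libraries 20162528 to 23248253. Log2 CPM (gene counts scaled to library size) correlated at 0.9926 to 0.9934 between GIMEN replicates, at 0.9706 to 0.9898 between SK-N-AS replicates and at 0.715 to 0.72 between lines. SK-N-AS replicate 4 had the lowest correlations with the other replicates (0.9706 to 0.9785, against 0.9849 to 0.9898 among the others), and the labels give no batch. Mitochondrial transcripts took 5.47% to 12.4% of SK-N-AS counts and 3.83% to 4.07% of GIMEN counts, and their part in the results was not tested. CPM rank a gene across libraries but are not corrected for gene length.

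Of 35237 genes in the table, 15101 passed the filter on low counts and 11119 (73.6%) differed between the lines at an edgeR adjusted p under 0.05. SK-N-AS had the higher level for 5924 genes (39.2%) and GIMEN for 5195 (34.4%), and the median gene differed by a log2 fold change of 0.07. Differences of at least 2-fold numbered 3661 (24.2%) higher in SK-N-AS and 2732 (18.1%) higher in GIMEN. For 11310 genes (74.9%) every library of one line lay above every library of the other. These shares are the background against which each gene list below is to be read. Scaling by library size alone, an alternative chosen after the data were seen, moved the median gene by 0.301 on the log2 scale and the share of calls higher in SK-N-AS from 53.3% to 66.8%.

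Silence on one side, by a rule on counts per library, was more frequent in GIMEN. A gene was taken to be at the floor when each library of a line held at most 3 counts, which corresponds to at most about 0.11 CPM in SK-N-AS and 0.156 CPM in GIMEN. With a mean of at least 10 CPM in the other line, 237 genes were at the floor in GIMEN and 26 in SK-N-AS. The rule was stricter for SK-N-AS, which had more libraries and effective sizes up to 40517082, against 20567595 in GIMEN. HAPLN1, for example, reached only 0.123 CPM in SK-N-AS but held 5 counts in 1 library and was not at the floor. The 2 numbers thus rest on unlike thresholds. A gene at the floor in one line enters the test only through the line that expresses it, so such genes had to differ.

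**Figure D1:**
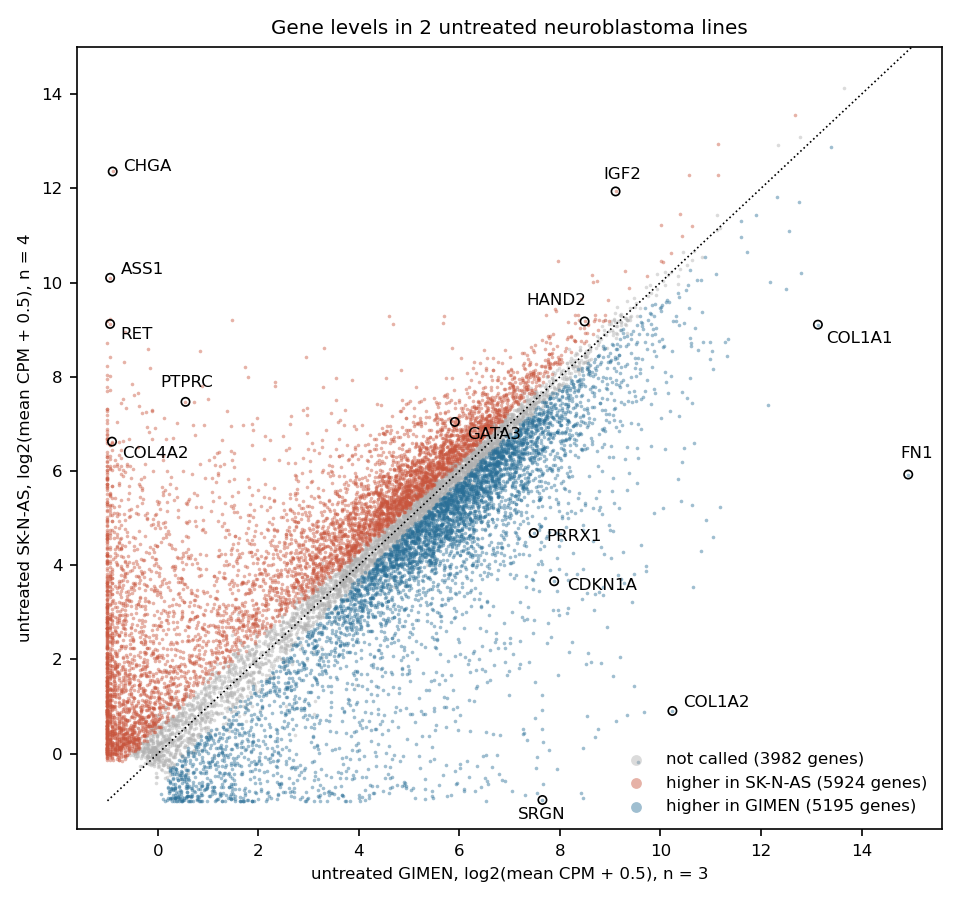
Mean level of each of the 15101 tested genes in untreated GIMEN (x axis) and untreated SK-N-AS (y axis), both as log2(mean CPM + 0.5), with the dotted line marking equality. CHGA, ASS1 and RET stand at the left edge, near 0 in GIMEN, while FN1 reaches 31177 CPM in GIMEN against 60.3 in SK-N-AS.

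The 10 genes with the largest excess in SK-N-AS included CHGA, ASS1, GAL, RET, NEUROG2, CHRNA3, DLL3, CRABP1 and SHD. Most are genes of sympathetic neuroblasts or neuronal precursors: CHGA encodes the granule protein chromogranin A, GAL the neuropeptide galanin, RET a receptor for GDNF-family ligands, CHRNA3 a ganglionic nicotinic receptor subunit and DLL3 a Notch ligand. CHGA stood at 3246, 2988, 8078 and 6680 CPM in the 4 SK-N-AS libraries and at 0, 0 and 0.112 CPM in the 3 GIMEN libraries. The GIMEN libraries held 2 CHGA counts in all, and the ratio of the lines was 152240 (95% exact Poisson interval 42144 to 1257100, for counting error only). ASS1, the argininosuccinate synthetase of arginine synthesis, ranged from 999 to 1177 CPM in SK-N-AS, and 1 count was found over the GIMEN libraries. RET lay between 460 and 710 CPM in SK-N-AS, again with 1 count in GIMEN. NEUROG2, a proneural factor, was at 228, 229, 601 and 615 CPM in SK-N-AS and without a count in GIMEN, at least 2686-fold higher against a floor of 3 counts per library.

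The genes with the largest excess in GIMEN were SPOCK1, SERPINB7, COL1A2, HAPLN1, FN1, GLIPR1, SRGN, SCUBE3, NR2F2 and FOXC2. Of these, FN1 (fibronectin), COL1A2 (a type I collagen chain), SPOCK1 and HAPLN1 (a proteoglycan and a hyaluronan link protein) and SRGN (serglycin) belong to the matrix or to secreted proteoglycans, and NR2F2 and FOXC2 encode transcription factors of mesenchyme and vessels. FN1 stood at 31660, 29980 and 31890 CPM in GIMEN and at 49.29, 50.03, 53.95 and 87.82 CPM in SK-N-AS, a 517-fold difference (log2 fold change -9.01, SE 0.27, edgeR adjusted p = 3.99e-09). It held the largest share of the GIMEN counts, 2.77%, without correction for gene length. HAPLN1 was at 340, 341 and 350 CPM in GIMEN and below 0.13 CPM in each SK-N-AS library. The GIMEN libraries varied little for these genes: NR2F2, for example, stood at 553, 551 and 566 CPM, against 0.95 to 1.34 CPM in SK-N-AS.

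CHGA and FN1 had the highest CPM of each of these rankings. Each is shown with the 250 bases before its RefSeq start (GRCh38.p14). They are shown because they differ in opposite directions between the lines and both windows hold the same cAMP response element. The palindrome TGACGTCA, in capitals, lies in the CHGA window at chr14:92922900-92923149 (plus strand) and in the FN1 window at chr2:215436069-215436318 (minus strand).
CHGA: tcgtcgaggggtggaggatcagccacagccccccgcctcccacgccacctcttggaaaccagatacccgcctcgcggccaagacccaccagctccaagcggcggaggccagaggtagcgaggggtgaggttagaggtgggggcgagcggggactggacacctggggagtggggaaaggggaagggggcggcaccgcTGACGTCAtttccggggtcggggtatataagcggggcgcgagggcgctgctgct
FN1: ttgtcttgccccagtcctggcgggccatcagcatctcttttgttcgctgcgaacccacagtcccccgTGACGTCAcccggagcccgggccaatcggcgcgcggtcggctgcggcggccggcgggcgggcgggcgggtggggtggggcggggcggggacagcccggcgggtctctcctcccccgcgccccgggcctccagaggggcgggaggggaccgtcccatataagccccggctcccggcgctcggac
Of the 20 genes ranked above, 11 had a window in the RefSeq table, 7 of those higher in SK-N-AS and 4 of those higher in GIMEN. On either strand, TGACGTCA was found in 1 of the 7 and 1 of the 4, against 1.65% of 35116 promoter windows. The AP-1 letters TGANTCA were in the window of CRABP1 alone (6.57% of all windows), the homeodomain core TAATTA in that of HAPLN1 alone (4.35%), and TATAAA in none (10.7%). A match is a description of the letters and not of a bound site.

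Adrenergic transcription factors were higher in SK-N-AS as a group, although the label of the line is mesenchymal. Of 24 listed factors 22 could be tested, and 20 were higher in SK-N-AS and 2 in GIMEN, against the background shares of 39.2% and 34.4%. At the floor in GIMEN were 9 of the 22, beside 981 of the 15101 genes tested. These 9 entered the test only through SK-N-AS and had to be higher there. The median log2 fold change was 5.39, or 4.73 with genes at 0 in GIMEN set to their bound, beside 0.07 over all genes tested. Summed over the list, SK-N-AS held 2773 to 3121 CPM and GIMEN 1317 to 1350 CPM.

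The factors fell into those absent from GIMEN and those that both lines expressed. PHOX2A, a homeodomain factor of the sympathetic lineage, was at 173, 164, 142 and 106 CPM in SK-N-AS and had no count in any GIMEN library, at least 940-fold higher. INSM1, INSM2, HAND1 and TFAP2B were likewise at or near 0 in GIMEN, with SK-N-AS means of 102, 64.4, 25.7 and 36.2 CPM.

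HAND2, by contrast, was abundant in both lines. Its levels were 584, 552, 596 and 578 CPM in SK-N-AS and 365, 348 and 365 CPM in GIMEN, without overlap but only 1.61-fold apart (edgeR adjusted p = 3.04e-05). In GENCODE 29, 24.1% of the HAND2 exon bases overlap genes of the opposite strand, whose reads cannot be told apart where counting ignored strand. The same limit, at 20.6% to 47.2% of exon bases, applies to B4GALNT1, CA9, CRABP1, GLIPR1, LYZ, MCM2, NGFR, PAPPA, PSMB8 and TYMS, and at 10.3% to 17.9% to CCND1, PCDHB2, STX1A and TAGLN. GATA3 was 2.20-fold higher in SK-N-AS, with 124 to 146 CPM against 56.5 to 62.8 CPM, and GATA2 was 2.36-fold higher. TBX2 went the other way, with 431 to 515 CPM in SK-N-AS and 629 to 660 CPM in GIMEN (1.40-fold), and SATB1 was 1.58-fold higher in GIMEN. The SATB1 call was lost without SK-N-AS replicate 2 (adjusted p = 0.063) and without GIMEN replicate 1 (0.0529) or 3 (0.0629), and scaling by library size alone lost both calls (0.212 for SATB1 and 0.0749 for TBX2). With all 22 libraries in the fit the TBX2 call was lost as well (adjusted p = 0.0798), and with SK-N-AS replicates 3 and 4 alone that of SATB1 (0.0917). GIMEN thus carried HAND2, GATA2, GATA3 and TBX2 transcripts without PHOX2A transcripts. MYCN was low in both lines, with a mean of 0 CPM in GIMEN and of 1.30 CPM in SK-N-AS.

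The machinery of catecholamine synthesis and of dense-core granules was also higher in SK-N-AS. Of 20 tested genes 17 were higher in SK-N-AS, 1 higher in GIMEN and 2 not called (median log2 fold change 4.87, or 4.12 with genes at 0 at their bound). At the floor in GIMEN were 7 of the 20, which entered the test only through SK-N-AS. DBH, which converts dopamine to noradrenaline, was at 58.5, 57.4, 98.7 and 91.5 CPM in SK-N-AS and at 0.204, 0.0972 and 0 CPM in GIMEN (706-fold, log2 fold change 9.46, or 10.39 without GIMEN replicate 1). CYB561, the granule cytochrome that supplies electrons to DBH, differed 237-fold, with 135 to 145 CPM against 0.562 to 0.616 CPM. TH, the rate-limiting enzyme of the pathway, remained under 0.57 CPM in each library of both lines and did not pass the filter. SK-N-AS therefore showed transcripts for later steps without appreciable TH. VGF was expressed by both lines, with means of 214 and 244 CPM, and not called with all libraries. It was called higher in SK-N-AS with replicates 1 and 2 of that line alone (log2 fold change 0.16, edgeR adjusted p = 0.032) and higher in GIMEN with 3 and 4 alone (-0.61, adjusted p = 0.00892). The gene higher in GIMEN, PCSK1, reached only 1.03 CPM.

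Some granule and neurogenic genes also varied among SK-N-AS libraries. CHGA, NEUROG2 and INSM1 were each more than 2-fold higher in replicates 3 and 4 than in replicates 1 and 2, and INSM1 stood at 49.4, 42.2, 155 and 162 CPM. FOSL1 (17.8, 18.1, 9.23 and 8.06 CPM) moved the other way. These genes were picked after their values were seen, and no SK-N-AS library overlapped GIMEN for any of them.

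**Figure D2:**
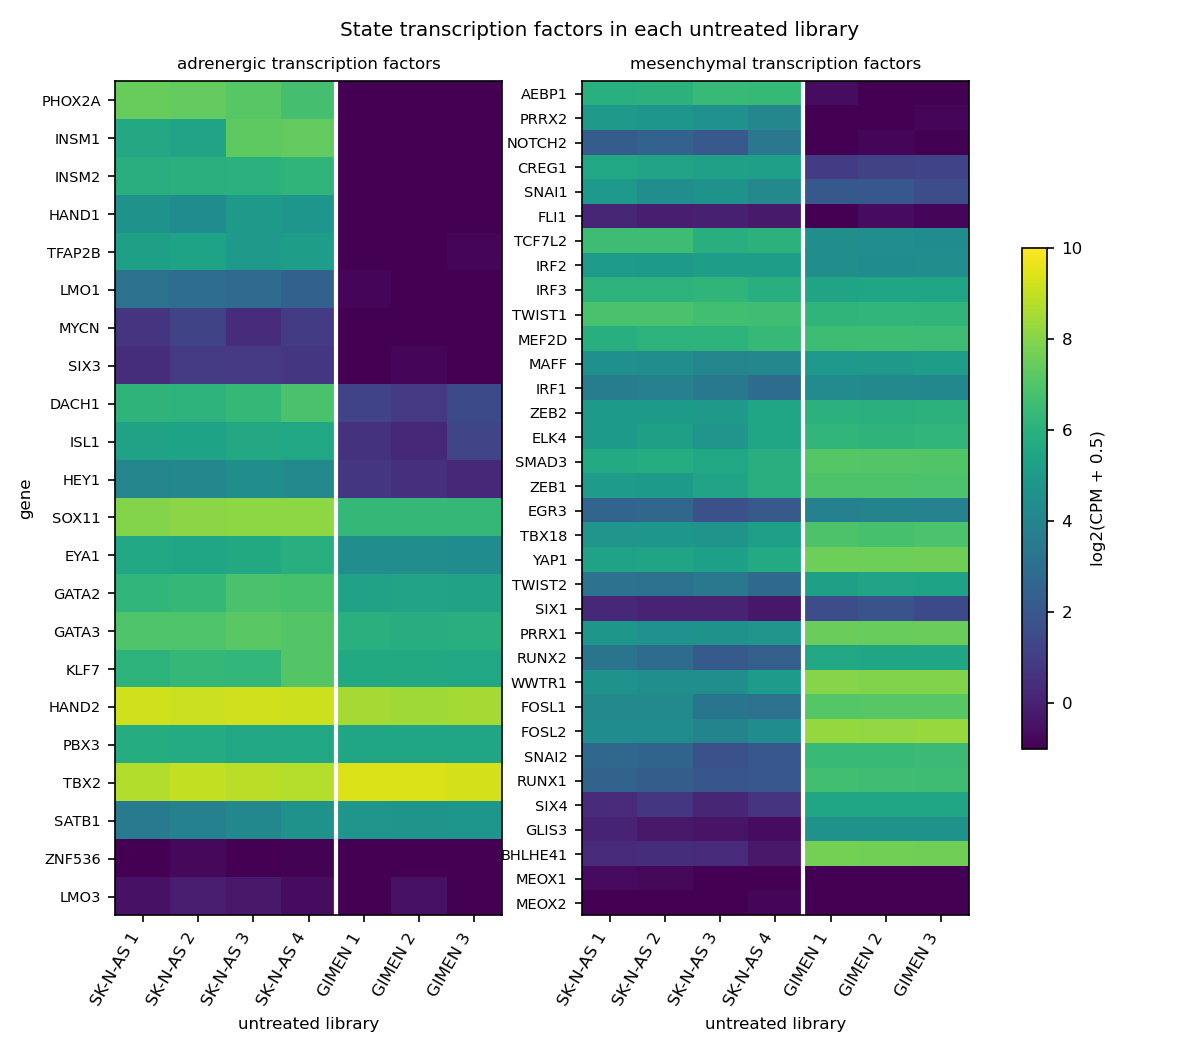
Level of 22 genes of the adrenergic (left) and 34 of the mesenchymal (right) transcription factor list in each of the 7 untreated libraries. Colour gives log2(CPM + 0.5), and genes are ordered by log2 fold change between the lines with the untested genes last. PHOX2A and INSM1 are bright in SK-N-AS and at the bottom of the scale in GIMEN, HAND2 and TBX2 are bright in both, and BHLHE41, RUNX1 and SNAI2 are bright in GIMEN.

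Members of the mesenchymal transcription factor list were split, with 22 of 32 tested higher in GIMEN and 10 higher in SK-N-AS (median log2 fold change -1.42). The list also holds genes that do not encode transcription factors, such as NOTCH2 and CREG1. No tested member had overlapping libraries, where 74.9% of all genes were free of overlap. At the floor in GIMEN were 4 of the 32, which entered the test only through SK-N-AS and had to be higher there. The summed level was 844 to 940 CPM in SK-N-AS and 2402 to 2457 CPM in GIMEN. PRRX1, a homeodomain factor able to impose the mesenchymal state, was at 27.6, 23.4, 23.6 and 26.3 CPM in SK-N-AS and at 181, 171 and 181 CPM in GIMEN, a 7.04-fold difference (log2 fold change -2.82, SE 0.09, edgeR adjusted p = 4.88e-09). SNAI2, a repressor of epithelial genes, was 19.7-fold higher in GIMEN, with 84.7 to 91.2 CPM against 2.86 to 5.83 CPM. FOSL1, an AP-1 subunit, was 10.4-fold higher and RUNX2, a factor of skeletal mesenchyme, 7.38-fold higher. BHLHE41 had the largest excess in GIMEN, with 195 to 208 CPM against 0.336 to 0.876 CPM, followed by SIX4 (48.8-fold) and GLIS3 (70.6-fold from a lower level). The Hippo effectors WWTR1 and YAP1 averaged 246 and 192 CPM in GIMEN and 25.1 and 43.0 CPM in SK-N-AS.

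The 10 members that were higher in SK-N-AS included genes near 0 in GIMEN. AEBP1 was at 63.5 to 85.5 CPM in SK-N-AS and had 3 counts in all GIMEN libraries together, and PRRX2, the paralogue of PRRX1, was at 16.6 to 30.8 CPM against 1 count. CREG1 was 24.6-fold higher in SK-N-AS, and SNAI1, the paralogue of SNAI2, averaged 22.7 CPM against 3.18 CPM in GIMEN. TWIST1 was shared, with 99.4 to 116 CPM in SK-N-AS and 72.7 to 74.1 CPM in GIMEN (1.47-fold). NOTCH2, which encodes a Notch receptor, had a mean of 5.65 CPM in SK-N-AS and 1 count over the GIMEN libraries, and 20.0% of its 75-base words are shared with another gene.

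Of markers of Schwann cells, glia and early crest, 14 of 22 could be tested, 5 higher in SK-N-AS, 8 higher in GIMEN and 1 not called. Without SK-N-AS replicate 1, or without replicate 2, 3 were called higher in SK-N-AS. SOX10, which defines migrating crest and Schwann cells, stayed under 0.1 CPM in all 7 libraries. SOX9, a factor of crest mesenchyme, was 5.30-fold higher in GIMEN, with 142 to 144 CPM against 26.4 to 28.1 CPM. NES, the intermediate filament nestin, was 22.2-fold higher in SK-N-AS (432, 521, 618 and 666 CPM against 27.1, 23.2 and 25.1 CPM). NGFR, the p75 neurotrophin receptor, was at 23.3, 28.1, 51.0 and 53.9 CPM in SK-N-AS and below 0.79 CPM in GIMEN, and 27.1% of its exon bases overlap the opposite strand. The median of these 14 genes was -2.30, but with no filter on low counts the median took the opposite sign.

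HOX genes, which record the position of a crest cell along the body axis, were mostly silent. Of 39 listed genes 14 passed the filter, 12 of them higher in SK-N-AS and 2 in GIMEN, and no HOXA gene was among those tested. At the floor in GIMEN were 4 of the 14, which entered the test only through SK-N-AS. HOXD9 was at 70.1, 57.2, 70.2 and 57.1 CPM in SK-N-AS and at 9.44 to 10.8 CPM in GIMEN (6.15-fold). HOXC4 was 35.9-fold and HOXD4 4.39-fold higher in SK-N-AS, although 74.3% of the 75-base words in HOXD4 transcripts also occur under another gene name in GENCODE 29, as do 15.5% of those in HOXC4. The 2 genes higher in GIMEN, HOXD10 and HOXD11, are the neighbours of HOXD9 in its cluster and averaged 3.24 and 3.36 CPM there, against 0.579 and 0.366 CPM in SK-N-AS. They were named after their values were seen.

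Neuronal cytoskeleton and synapse genes showed both directions, 17 of 26 higher in SK-N-AS, 6 higher in GIMEN and 3 not called. At the floor in GIMEN were 9 of the 26, which entered the test only through SK-N-AS. ELAVL4, a neuronal RNA-binding protein, was at 129, 128, 161 and 198 CPM in SK-N-AS and without a count in GIMEN, at least 989-fold higher. STMN2, a growth cone protein regulating microtubules, was at 26.1 to 42.7 CPM against 1 count in GIMEN. CHRNA3, the ganglionic acetylcholine receptor subunit, ranged from 411 to 622 CPM against 0.0486 to 0.204 CPM. The 6 exceptions were TUBB3, MAP2, STMN3, SNAP25, STX1A and CRMP1, several of them routine neuronal markers. TUBB3, the neuronal beta-tubulin, was at 192, 165, 251 and 197 CPM in SK-N-AS and at 490, 538 and 522 CPM in GIMEN (2.57-fold higher in GIMEN, edgeR adjusted p = 8.83e-06). Of the 75-base words of TUBB3 transcripts, 31.3% are shared with another gene name. MAP2, a dendritic microtubule protein, was 6.10-fold higher in GIMEN, and STX1A, a synaptic membrane fusion protein, 7.68-fold higher.

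**Figure D3:**
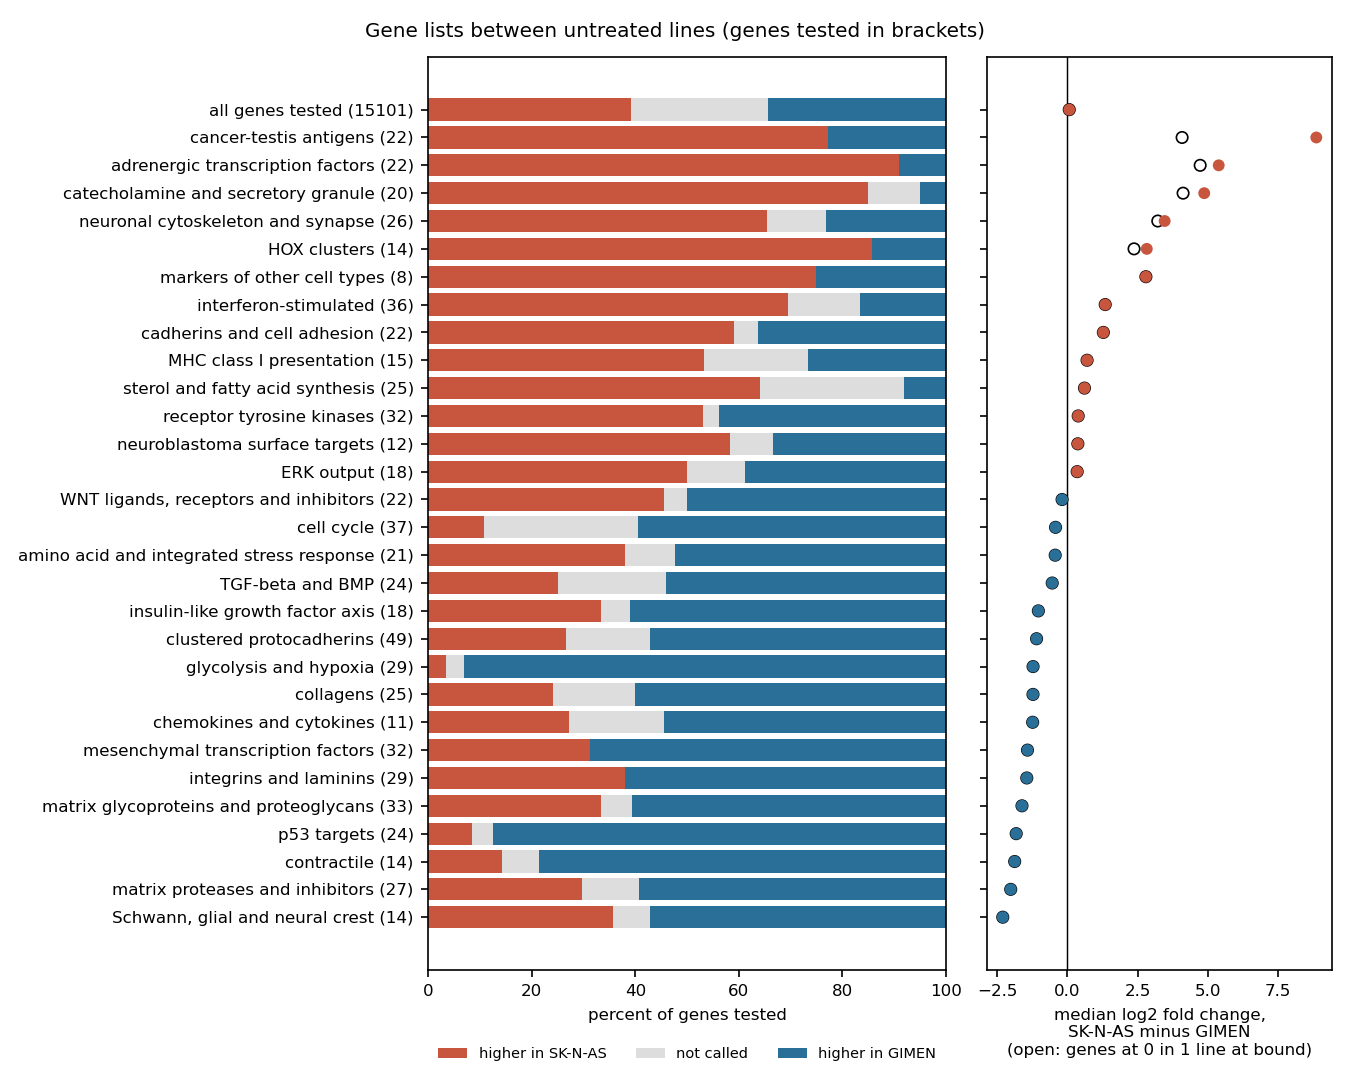
Percentage of tested genes higher in SK-N-AS, not called and higher in GIMEN for 29 gene lists and for all 15101 genes tested (left), and the median log2 fold change of each list, SK-N-AS minus GIMEN (right), with open circles where genes at 0 in 1 line are set to their lower bound. Adrenergic factors have a median of 5.39 and p53 targets of -1.82, beside 0.07 over all genes.

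Extracellular matrix genes were abundant in GIMEN. Among matrix glycoproteins and proteoglycans 20 of 33 were higher in GIMEN, 11 in SK-N-AS and 2 not called, with summed levels of 42120 to 44230 CPM in GIMEN and 2524 to 2627 CPM in SK-N-AS. Most of the GIMEN sum was FN1, with a mean of 31177 CPM. FBN1, the microfibril protein fibrillin, was at 708, 689 and 723 CPM in GIMEN and at 1.90 to 2.99 CPM in SK-N-AS (313-fold). EFEMP1, another microfibril-associated protein, was 175-fold higher in GIMEN (log2 fold change -7.45, or -8.18 without SK-N-AS replicate 1). FBLN1 (39.8-fold) and the matricellular protein POSTN (37.8-fold) were higher in SK-N-AS, POSTN from a mean of only 5.37 CPM (log2 fold change 5.24, but 5.86 for SK-N-AS replicates 1 and 2 alone and 4.18 for 3 and 4 alone). TNC, tenascin, was 3.38-fold higher in GIMEN.

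Collagen genes went in both directions, also within a type. Of 25 tested genes 15 were higher in GIMEN, 6 in SK-N-AS and 4 not called (median log2 fold change -1.22). COL1A1 was at 8959, 8864 and 9095 CPM in GIMEN and at 531 to 584 CPM in SK-N-AS, a 16.3-fold difference. COL1A2, whose product joins COL1A1 in the type I trimer, was at 1202, 1226 and 1192 CPM in GIMEN and at 1.19 to 1.49 CPM in SK-N-AS (871-fold). SK-N-AS thus had COL1A1 transcripts with very few COL1A2 transcripts. COL3A1 was close in both lines, 852 to 1099 CPM against 1451 to 1558 CPM (1.51-fold higher in GIMEN). Type VI chains were unequal as well: COL6A3 was 144-fold higher in GIMEN while COL6A2 was 4.28-fold higher in SK-N-AS.

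The paired basement membrane genes COL4A1 and COL4A2 were among the 6 collagens higher in SK-N-AS. COL4A2 was at 116, 119, 70.1 and 87.6 CPM in SK-N-AS and COL4A1 at 55.48, 61.99, 34.25 and 52.95 CPM, and the GIMEN libraries held 2 counts of each in all. COL4A6, a type IV chain encoded elsewhere, had the reverse pattern, with 155 to 168 CPM in GIMEN and 0.286 to 1.14 CPM in SK-N-AS (222-fold).

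**Figure D4:**
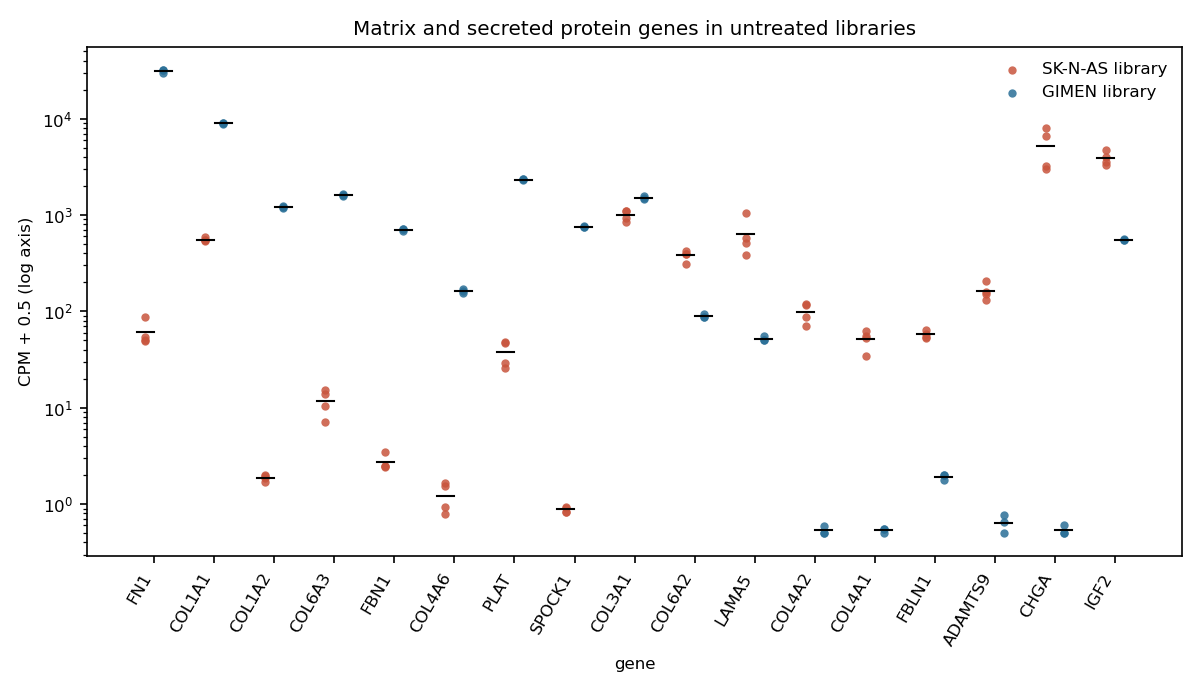
CPM + 0.5 on a log axis of 17 matrix and secreted protein genes in the 4 SK-N-AS and 3 GIMEN untreated libraries, with bars at the means. FN1 and COL1A1 have the highest levels in GIMEN, and COL1A2 is far higher there than in SK-N-AS. COL3A1 lies between 852 and 1558 CPM in every library, and COL4A1, COL4A2, CHGA and ADAMTS9 are close to 0 in GIMEN.

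Cell-matrix receptors and matrix-degrading enzymes also differed. Of 29 integrin and laminin genes 18 were higher in GIMEN, led by LAMA2 (348-fold) and LAMB3 (113-fold), and 11 in SK-N-AS. LAMA5 was among those higher in SK-N-AS (381, 517, 573 and 1043 CPM against 49.6 to 54.9 CPM). ITGA10, a collagen receptor subunit, was 91.5-fold higher in GIMEN. Of 27 proteases and inhibitors 16 were higher in GIMEN, 8 in SK-N-AS and 3 not called (median log2 fold change -2.01). PLAT, the tissue plasminogen activator, was at 2366, 2293 and 2347 CPM in GIMEN (63.1-fold higher). ADAMTS9 was at 131 to 207 CPM in SK-N-AS and below 0.28 CPM in GIMEN.

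Adhesion molecules differed in both directions, with 13 of 22 cadherin and immunoglobulin-type genes higher in SK-N-AS, 8 in GIMEN and 1 not called. At the floor in GIMEN were 4 of the 22, which entered the test only through SK-N-AS. NCAM1, the neural cell adhesion molecule, was at 53.1 to 81.7 CPM in SK-N-AS and near 0.1 CPM in GIMEN (510-fold), and L1CAM was 112-fold higher in SK-N-AS. ALCAM was 3.81-fold higher in GIMEN. Of 49 clustered protocadherins, whose variable exons share constant parts within a cluster so that reads between members may be divided uncertainly, 28 were higher in GIMEN, 13 in SK-N-AS and 8 not called. PCDHB8 and PCDHB2 led in GIMEN (65.7-fold and 26.1-fold, the former with a log2 fold change of -6.04, or -6.69 without SK-N-AS replicate 4) and PCDHGA11 in SK-N-AS (131-fold).

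The lines carried different growth factor receptors. Of 32 tested receptor tyrosine kinases 17 were higher in SK-N-AS, 14 in GIMEN and 1 not called. Both shares, 53.1% and 43.8%, were above the background of 39.2% and 34.4%, and the list had no common direction. At the floor were 6 of the 32 in GIMEN and 1 in SK-N-AS, beside 981 and 156 of the 15101 genes tested. These entered the test only through the line that expresses them and had to be higher there. RET, described above, was among the 17 higher in SK-N-AS. GIMEN had MET, the hepatocyte growth factor receptor, at 422, 402 and 424 CPM against 0.568 to 0.856 CPM in SK-N-AS (544-fold). AXL was at 550 to 579 CPM in GIMEN and at 8.73 to 17.8 CPM in SK-N-AS, and EGFR at 522 to 539 CPM against 46.5 to 86.4 CPM (9.23-fold). PDGFRB, a receptor typical of mesenchymal cells, was 5.02-fold higher in GIMEN.

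ERK output genes showed no common direction, 9 of 18 higher in SK-N-AS, 7 in GIMEN and 2 not called (median log2 fold change 0.35). SPRY1, a feedback inhibitor of receptor signalling, was at 203, 200, 227 and 244 CPM in SK-N-AS and had no count in GIMEN, at least 1404-fold higher. Its paralogue SPRY2 was expressed by both, 3.54-fold higher in SK-N-AS, as was the phosphatase DUSP4 (8.29-fold). EGR1, an immediate early gene, was 6.19-fold higher and CCND1, cyclin D1, 4.77-fold higher in GIMEN.

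In the insulin-like growth factor axis the ligand was higher in SK-N-AS and most modulators in GIMEN, 6 and 11 of 18 tested genes, with 1 not called. IGF2 was at 3572, 4723, 3322 and 4039 CPM in SK-N-AS and at 546, 560 and 548 CPM in GIMEN (7.10-fold, log2 fold change 2.83, SE 0.15, edgeR adjusted p = 1.09e-07), with 22.9% of its 75-base words under another gene name too. INSR, the insulin receptor that also binds IGF2, was at 21.1 to 28.8 CPM in SK-N-AS and below 0.17 CPM in GIMEN (217-fold). IRS1, the adaptor downstream of both receptors, was 35.4-fold higher in GIMEN. PAPPA, a protease that frees insulin-like growth factors from binding proteins, was 35.0-fold higher in GIMEN, while the binding protein IGFBP2 was 49.5-fold higher in SK-N-AS. H19 and MEG3 were not analysed here.

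Targets of p53 were lower in SK-N-AS almost throughout, with 21 of 24 higher in GIMEN, 2 in SK-N-AS and 1 not called, against 34.4% of all genes higher in GIMEN (median log2 fold change -1.82). CDKN1A, which encodes the CDK inhibitor p21, was at 13.4, 13.8, 11.5 and 9.80 CPM in SK-N-AS and at 234, 240 and 234 CPM in GIMEN (19.4-fold, log2 fold change -4.28, SE 0.13, edgeR adjusted p = 3.18e-09). PHLDA3 differed 44.8-fold and GDF15 11.6-fold in the same direction. The genes higher in SK-N-AS were BTG2 (3.84-fold) and SPATA18, the latter at a mean of 0.772 CPM with no count in GIMEN.

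Proliferation genes differed by smaller factors. Of 37 cell cycle genes 22 were higher in GIMEN, 4 in SK-N-AS and 11 not called (median log2 fold change -0.42). With SK-N-AS replicates 1 and 2 alone, or with scaling by library size alone, 8 were higher in SK-N-AS. MKI67 ranged from 133 to 267 CPM in SK-N-AS and from 228 to 257 CPM in GIMEN, with overlapping libraries and no call (edgeR adjusted p = 0.197). Without SK-N-AS replicate 4 it was called higher in GIMEN (log2 fold change -0.46, adjusted p = 0.0141), as it was with a replicate block (-0.49, adjusted p = 0.00387) and with SK-N-AS replicates 1 and 2 alone (-0.27, adjusted p = 0.00685). RRM2 was 3.04-fold and AURKB 3.08-fold higher in GIMEN. CCNE1, cyclin E1, was 5.14-fold and E2F1 2.10-fold higher in SK-N-AS, joined by MCM2 and TYMS with smaller differences. The TYMS call was lost without any single GIMEN replicate (adjusted p = 0.0545 to 0.0776), and 46.6% of its exon bases overlap the opposite strand.

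Interferon-stimulated genes were mostly higher in SK-N-AS, 25 of 36 tested, with 6 higher in GIMEN and 5 not called (median log2 fold change 1.35). BST2 (68.4-fold), HERC5 (44.6-fold) and OAS3 (40.4-fold) were among the larger differences, and CMPK2, at a mean of 7.70 CPM in SK-N-AS, had no count in GIMEN (at least 49.5-fold higher). In antigen presentation 8 of 15 genes were higher in SK-N-AS, 4 in GIMEN and 3 not called. PSMB8, a subunit of the immunoproteasome, was at 18.9 to 33.4 CPM in SK-N-AS and without a count in GIMEN (at least 169-fold). B2M, the shared light chain of class I molecules, averaged 218 and 254 CPM and was not called, although with SK-N-AS replicates 3 and 4 alone it was higher in GIMEN (log2 fold change -0.44, edgeR adjusted p = 0.0303). ERAP2, a peptide trimmer, was 21.4-fold higher in GIMEN.

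Few chemokine and cytokine genes were expressed. Of 29 listed 11 were tested, 6 higher in GIMEN, 3 in SK-N-AS and 2 not called. CXCL12, LIF and CSF1 were 27.9-fold, 25.6-fold and 8.38-fold higher in GIMEN. CCL2 was higher in SK-N-AS but uneven among its libraries, at 25.2, 17.7, 11.9 and 6.17 CPM.

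In signalling by transforming growth factor beta and bone morphogenetic proteins, 13 of 24 genes were higher in GIMEN, 6 in SK-N-AS and 5 not called. TGFBR2, the receptor that binds the ligand, was at 496, 486 and 490 CPM in GIMEN and at 4.90 to 6.75 CPM in SK-N-AS (82.1-fold). FST, which traps activins, was 1600-fold higher in GIMEN, and INHBA, an activin subunit, 122-fold higher. Contractile genes were higher in GIMEN for 11 of 14 tested members, among them TAGLN (49.7-fold) and CALD1 (9.78-fold), and SYNPO2 was 41.3-fold higher in SK-N-AS. DES, at means of 0.754 CPM in SK-N-AS and 0.267 CPM in GIMEN with overlapping libraries, was the other member called higher in SK-N-AS. The call on DES was lost without SK-N-AS replicate 2 (edgeR adjusted p = 0.0788) and without GIMEN replicate 1 (0.102) or 2 (0.146), and DES was not tested without SK-N-AS replicate 1. WNT pathway genes showed no direction, 10 higher in SK-N-AS, 11 in GIMEN and 1 not called of 22, with a median of -0.18 that changed sign with library size scaling and without GIMEN replicate 1 or 2. SFRP1, a secreted WNT antagonist, had the highest CPM of these, at 4520, 4485 and 4503 CPM in GIMEN and 145 to 193 CPM in SK-N-AS (26.6-fold).

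Cancer-testis antigens, genes largely restricted to the germ line, differed between the lines, with some expressed by both. Of 35 listed 22 were tested, 17 higher in SK-N-AS and 5 in GIMEN (median log2 fold change 8.86, or 4.09 with genes at 0 at their bound). At the floor in GIMEN were 16 of the 22, beside 981 of the 15101 genes tested. These 16 entered the test only through SK-N-AS and had to be higher there, so the count of 17 says little about direction. In SK-N-AS 1 member was at the floor and had to be higher in GIMEN. PRAME, with the highest CPM of them in SK-N-AS, was at 486.9 to 611.6 CPM there and at 48.03 to 51.97 CPM in GIMEN (11.2-fold). CTAG2 was at 289, 244, 239 and 215 CPM in SK-N-AS with no count in GIMEN, at least 1586-fold higher. MAGEA3 and MAGEA6 were at 52.1 to 84.2 and 52.3 to 85.6 CPM in SK-N-AS, with 0 and 1 counts in GIMEN. These are near-identical copies, so their separate levels are uncertain. The genes higher in GIMEN were MAGEA4 (343, 354 and 351 CPM against 9.89 to 20.0 CPM), MAGEC1 (146.5 to 161.2 CPM against 18.51 to 23.54 CPM), MAGEC2, PAGE5 and SSX1.

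Genes considered as surface targets in neuroblastoma were divided, 7 of 12 higher in SK-N-AS, 4 in GIMEN and 1 not called. GPC3 was at 20.1 to 27.4 CPM in SK-N-AS without a count in GIMEN (at least 150-fold). B4GALNT1 and ST3GAL5, which act in GD2 ganglioside synthesis, were 2.37-fold and 8.53-fold higher in GIMEN. CD276, which encodes B7-H3, averaged 150 and 159 CPM and was not called.

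Metabolic lists differed most for glycolysis and the hypoxia response, 27 of 29 higher in GIMEN, 1 in SK-N-AS and 1 not called (median log2 fold change -1.22). CA9, a carbonic anhydrase induced by hypoxia, was at 75.4, 83.1 and 78.0 CPM in GIMEN and below 0.2 CPM in SK-N-AS, and NDRG1 was 24.1-fold higher. The exception was EGLN3, a prolyl hydroxylase that is itself a hypoxia target, at 34.8 to 61.4 CPM in SK-N-AS and below 0.82 CPM in GIMEN. A further member, making 2, was called higher in SK-N-AS without SK-N-AS replicate 3 or 4. Sterol and fatty acid synthesis genes were higher in SK-N-AS for 16 of 25, with 2 higher in GIMEN and 7 not called, led by DHCR7 (11.1-fold) and with FASN 2.43-fold higher. Of the members higher in GIMEN, MVD was 1.33-fold higher, and its call was lost without SK-N-AS replicate 1 or 3 or without any single GIMEN replicate (edgeR adjusted p = 0.0553 to 0.0867), and with upper-quartile factors (0.141). Amino acid and stress response genes had no common direction (8 and 11 of 21, 2 not called), and PHGDH, the first enzyme of serine synthesis, was 16.5-fold higher in SK-N-AS. The media differ in glucose and amino acids, and their part in these lists was not tested.

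Markers of other cell types were mostly low, and 8 of 23 passed the filter, with PTPRC and CLDN4 at the highest CPM in SK-N-AS. PTPRC, which encodes the leukocyte antigen CD45, was at 168, 174, 158 and 207 CPM in SK-N-AS and at 0.868, 0.632 and 1.40 CPM in GIMEN (185-fold, log2 fold change 7.53, SE 0.22, edgeR adjusted p = 3.25e-09). Other defining leukocyte genes were at or near 0 in the same libraries: CD2 and MS4A1 had no count, CD3E had none in SK-N-AS, and SPI1, LYZ and LAPTM5 stayed below 0.4 CPM. CLDN4, an epithelial tight junction gene, was at 29.89, 26.37, 17.56 and 11.85 CPM in SK-N-AS and at 2.74 to 3.68 CPM in GIMEN (6.56-fold). The endothelial gene CDH5 reached 8.98 CPM in SK-N-AS, with PECAM1 and VWF at or below 1.01 CPM there. The summed level of the list, 191 to 237 CPM in SK-N-AS and 11.4 to 12.7 CPM in GIMEN, was mostly PTPRC in SK-N-AS.

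The 30-day cultures give a further set of 7 libraries of the same lines, with different compound doses and media. Among them 15148 genes were tested, and 6200 (40.9%) were higher in SK-N-AS and 5640 (37.2%) higher in GIMEN. Of the 5924 genes higher in untreated SK-N-AS, 3756 (63.4%) were again called higher in SK-N-AS and 607 (10.2%) were called lower. Of the 5195 higher in untreated GIMEN, 3632 (69.9%) were called in the same direction and 608 (11.7%) in the other. Of the 237 genes at the floor in untreated GIMEN, 206 were called higher in SK-N-AS again, and of the 26 at the floor in untreated SK-N-AS, 25 were called higher in GIMEN again. These calls do not mean that the genes were still at the floor: in 30-day SK-N-AS, FST stood at 21.7 to 29.4 CPM and SERPINB7 at 6.47 to 9.40 CPM. FN1 averaged 1.80 CPM in SK-N-AS and 17649 CPM in GIMEN, and IGF2 3790 and 102 CPM.

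State factors differed in how far this recurrence went. Of the 20 adrenergic factors higher in untreated SK-N-AS, 13 were called higher again and 2 lower. This is close to the shares over all genes higher in untreated SK-N-AS, 63.4% and 10.2%. CHGA averaged only 20.4 CPM in SK-N-AS. HAND2 and GATA3 were called in the other direction, HAND2 with 136 CPM in SK-N-AS and 175 CPM in GIMEN and GATA3 with 28.1 and 67.3 CPM. The 10 members of the mesenchymal list higher in untreated SK-N-AS were all called higher again. Of the 22 higher in untreated GIMEN, 8 recurred and 10 were called in the other direction. Over all genes higher in untreated GIMEN these shares were 69.9% and 11.7%. FOSL1 averaged 110 CPM in SK-N-AS and 38.4 CPM in GIMEN, SNAI2 28.2 and 10.5 CPM, and RUNX2 38.6 and 21.1 CPM. PRRX1 was again called higher in GIMEN (log2 fold change -0.54, edgeR adjusted p = 0.0363), but the libraries overlapped, with 68.7 to 83.8 CPM in SK-N-AS and 58.55, 139.9 and 132.1 CPM in GIMEN. PTPRC, at 0.806 CPM in SK-N-AS and 0.429 CPM in GIMEN, was no longer called. The change of the line difference itself was not tested here, and dose and medium differ between the treated lines.

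**Figure D5:**
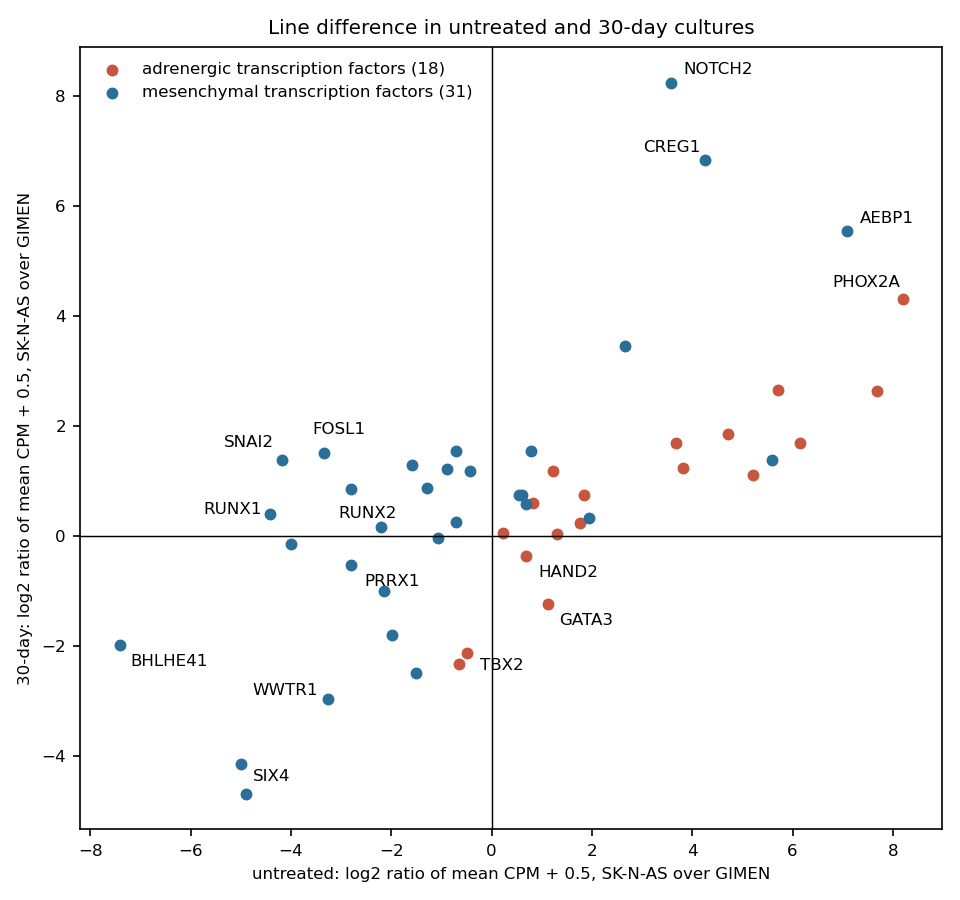
Log2 ratio of mean CPM + 0.5, SK-N-AS over GIMEN, in untreated (x axis) and 30-day (y axis) libraries for 18 adrenergic and 31 mesenchymal factors tested in both. PHOX2A lies in the upper right, BHLHE41 and SIX4 in the lower left, and SNAI2, FOSL1 and RUNX1 in the upper left, where the direction differs between the conditions.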

How the data were processed

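The authors deposited 1 table of unnormalised gene counts with a column for each sample. Per the labels, the RNA was total RNA treated with DNase, and an Illumina HiSeq X read both ends of each fragment. The values are whole numbers with differing library totals. The aligner, counter, genome build, annotation and strand setting are not given in the sources used here, so no gene coordinates from the counts are given. Groups were taken from the labels. Counts were tested in R 4.3.3 with edgeR 4.0.16 (filterByExpr, TMM scaling, quasi-likelihood F-test, Benjamini-Hochberg adjustment over all genes tested, threshold 0.05) on the 7 untreated libraries, and separately on the 7 libraries of the 30-day groups. CPM use TMM-scaled library sizes, and standard errors come from the fitted model. The TMM factors were 1.061 to 1.135 in SK-N-AS and 0.8852 to 0.8914 in GIMEN. Where a line had no count, the fold is a bound against 3 counts per library. With 1 to 3 counts it is a ratio with a 95% exact Poisson interval, or the counts are given alone. Reads carry no molecular identifiers, so bounds and intervals cover counting error only.

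The depth of 19145000 to 37506800 counts per library sets the precision, and the biological coefficient of variation was 0.158. Replicate numbers recur in both lines, and nothing in the labels says that they pair the libraries. The deviations of same-numbered libraries correlated at -0.0129 to 0.0366. Whether same-numbered libraries shared a batch was not tested. Alternatives were DESeq2 1.42.0 with its size factors or its test, upper-quartile factors, library size alone (chosen after seeing the data), a replicate block, testing without a filter or with a minimum mean count of 10, all 22 libraries in the fit, SK-N-AS replicates 1 and 2 or 3 and 4 only, and each library left out in turn.

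Named genes are a fixed set of 30, the 10 per direction with the largest log2 ratio of mean CPM + 0.5 among called genes of at least 10 CPM without overlap, and up to 3 per direction and list by the same ratio among members of at least 5 CPM. Some genes these rules name are not reported here or drawn in the figures, but they remain in the fits and in the list counts. Others are members of a list named for a count of few genes or for contrast, after their values were seen. The members and the 29 gene lists were chosen with earlier results of these data known, and list counts are descriptions without a test. Shared 75-base words and opposite-strand overlap come from GENCODE 29, and promoter windows from RefSeq (GRCh38.p14), neither of which need be the authors' annotation.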

Additional observations from a re-analysis of the deposited data

Results flagged for a closer look

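In untreated SK-N-AS, 1 library lay far from the other 3 for 10 of the 163 tested genes named in the text, where chance gives about 1 in 20. In 8 of the 10 it was replicate 4, each time the highest, which also had the lowest correlations with the others (0.9706 to 0.9785). Replicate 4 was the high library for FN1 (87.8 CPM), EGFR (86.4 CPM), SYNPO2 (542 CPM), ALCAM (117 CPM), DUSP4 (74.4 CPM), MAP2 (24.6 CPM), TNC (24.0 CPM) and FBN1 (2.99 CPM). Replicate 1 was the low library for MET (0.568 CPM) and the only one with a count for SRGN (0.0247 CPM, a single count). None of these libraries reached the range of GIMEN.

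For 12 genes the line difference ran in opposite directions in untreated and in 30-day libraries, with no overlap of the lines in either. The 30-day log2 fold changes (SK-N-AS minus GIMEN) were 1.52 for FOSL1, 1.42 for SNAI2, 0.864 for RUNX2, 0.399 for RUNX1, 1.58 for INHBA, 2.88 for LIF, 1.86 for PCSK1 and 1.06 for MVD, all of which were higher in GIMEN before treatment. They were -0.372 for HAND2, -1.26 for GATA3, -0.62 for HOXD4 and -0.567 for E2F1, which were higher in SK-N-AS before treatment. Each fold change passed edgeR's test within its condition, but the difference between conditions was not tested.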

How the results depend on the processing

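The 6 counts of called genes stayed within 1.5 times their value in all 96 recomputed values. Leaving out each library in turn gave 5456 to 6142 genes higher in SK-N-AS and 4741 to 5701 higher in GIMEN, 3525 to 3719 and 2663 to 2874 at least 2-fold higher, and 7144 to 7396 calls in the same and 1125 to 1191 in the other direction among the 30-day libraries. DESeq2 gave 6041 and 5158, SK-N-AS replicates 1 and 2 alone 6349 and 5749, and replicates 3 and 4 alone 5714 and 5001. A replicate block gave 6106 and 5643, although nothing in the labels pairs the libraries by number. Library size alone gave 7509 and 3724.

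The median of Schwann, glial and crest genes reversed with no filter (0.348), that of chemokines with no filter (0.213) and with all 22 libraries (0.619). That of WNT genes reversed with no filter (0.790), library size alone (0.116), all 22 libraries (0.0119) and without GIMEN replicate 1 (0.0244) or 2 (0.0595), and was lowest without SK-N-AS replicate 1 (-0.420). Genes not called with all libraries also reversed: with library size alone B2M (0.0736), MKI67 (0.00827), VGF (0.0997) and CD276 (0.217, now called at adjusted p = 0.0272), CD276 with upper-quartile factors (0.0427), and VGF with SK-N-AS replicates 1 and 2 alone (0.158, now called at adjusted p = 0.032). The filter left out 8 Schwann, glial and crest genes, 18 chemokine genes and 9 WNT genes. Without it all of these enter except 1 chemokine gene that had no count. For the other settings the cause was not tested. With SK-N-AS replicates 3 and 4 alone, the log2 fold change was -3.999 for FOSL1, -6.96 for GLIS3 and -6.17 for PHLDA3, and 3 catecholamine genes were higher in GIMEN. Genes near 0 in a line have folds limited by depth.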

Other observations

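Several structural transcripts with high CPM were also unequal, an observation made after the values were seen. VIM, which encodes the mesenchymal intermediate filament vimentin, was at 1197, 1064, 837 and 648 CPM in SK-N-AS and at 5727, 5980 and 5673 CPM in GIMEN (log2 fold change -2.63, SE 0.19, edgeR adjusted p = 1.36e-06), and 24.4% of its exon bases overlap the opposite strand in GENCODE 29 (14.2% for GAPDH). The cytoplasmic actins differed by unequal amounts, ACTG1 by -2.58 and ACTB by -1.04 on the log2 scale, and GAPDH, a glycolytic enzyme often used as a reference gene, by -1.46. For none of these 4 genes did the libraries of the lines overlap.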
